A study of Mus musculus with 6 samples.

Results

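The replication-dependent histone genes were described in regulatory T cells (Tregs) from T11 tumors, as the rows of the count table whose symbol begins with Hist1h, Hist2h, Hist3h or Hist4h. That rule gave 68 of the 23420 genes: 6 of class H1, 18 of H2A, 19 of H2B, 12 of H3 and 13 of H4. T11 is a transplantable mouse mammary tumor line of the claudin-low subtype of triple-negative breast cancer, and Tregs are T cells that carry the transcription factor Foxp3 and restrain other immune cells. All 6 libraries came from BALB/c mice with a Foxp3-GFP reporter that were injected with 10000 T11 cells. The untreated group has 3 libraries, numbered 1 to 3, and the anti-PD-1 group has 3, numbered 4 to 6. Mice of the anti-PD-1 group received 200 µg of the antibody J43, which blocks the inhibitory receptor PD-1, by intraperitoneal injection, with 2 injections a week. Tumors were taken at 150 mm2 in both groups, and GFP-positive cells were sorted to a stated purity above 90%, so Treg identity rests on the reporter and the sort. The labels give neither the age or sex of the mice nor whether each library came from 1 mouse, so the spread behind each p-value is that among libraries and may be technical. The question of the comparison, per the series title, is how Treg expression differs between treated and untreated tumors.

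Replication-dependent histone genes supply the protein onto which newly copied DNA is wound. H3 and H4 form the core tetramer of the nucleosome, H2A and H2B join it as dimers, and H1 binds the linker DNA between nucleosomes. Their messages accumulate in S phase and, unlike other messages, usually end in a short stem-loop rather than a poly(A) tail; the stem-loop binding protein Slbp holds that end through processing, export and decay. Replacement histone genes such as H3f3b are read outside S phase as well and carry poly(A) tails. In T cells, the replication-dependent genes are known as markers of dividing cells.

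The stem-loop is shown first because it is the feature that sets these messages apart, and because the counted exons of many members stop before it. A search of the GENCODE M21 transcripts (GRCm38, the same build as mm10) for the 16-base stem-loop motif after the stop codon, on the coding strand, found it in 46 of the 68 members and in 40 of 21810 other coding genes, or 0.183%. Of the 68 members, 50 have a transcript with at least 50 bases after the stop codon, and a shorter one can miss the motif. The motif was read as gg, any 2 bases, ctt, any base, t, any base, ag, any 2 bases and cc. The form with the loop TTTC inside the stem ggctct was read in 26 members of classes H1, H2A, H2B and H3 and in no H4 member, whereas 7 H4 members carried ggccct in its place. These 4 examples are from members described below or, for the last, from the rarer H4 stem; capitals mark the 4 bases of the loop.
Hist1h1c, chr13:23739512-23739527, plus strand: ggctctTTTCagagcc
Hist1h2bb, chr13:23747203-23747218, plus strand: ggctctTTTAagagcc
Hist1h4f, chr13:23551291-23551306, minus strand: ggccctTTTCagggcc
Hist1h4b, chr13:23757366-23757381, plus strand: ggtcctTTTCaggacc
The stem-loop lay inside the exons counted by the authors in 24 members, and in 29 members the counted length equals the coding length. Counts of those 29 therefore cover the coding sequence alone.

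The 54 Hist1 members lie on chromosome 13 between positions 21715763 and 23934851 of mm10, the 10 Hist2 members on chromosome 3 between 96219916 and 96270192, the 3 Hist3 members on chromosome 11 between 58948911 and 58956674, and Hist4h4 on chromosome 6 between 136801553 and 136804431. Of all members, 58 are counted over a single exon. Copies of a class are close to one another in sequence. Over the 312 coding bases of H4, Hist1h4m is identical to Hist1h4n, Hist1h4h differs from it at 10 bases, Hist1h4f at 12, Hist1h4c at 19, Hist1h4d at 20 and Hist4h4 at 42. The first 60 coding bases of the 5 H4 genes whose counts are described below show where reads can tell copies apart; capitals mark bases that differ from Hist1h4n.
Hist1h4n, chr13:21832099-21832158, minus strand: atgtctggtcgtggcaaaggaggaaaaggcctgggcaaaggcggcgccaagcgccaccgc
Hist1h4f, chr13:23551584-23551643, minus strand: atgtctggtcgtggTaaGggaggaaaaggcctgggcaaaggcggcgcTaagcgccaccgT
Hist1h4h, chr13:23531115-23531174, plus strand: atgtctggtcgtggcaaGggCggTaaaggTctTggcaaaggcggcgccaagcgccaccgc
Hist1h4c, chr13:23698390-23698449, minus strand: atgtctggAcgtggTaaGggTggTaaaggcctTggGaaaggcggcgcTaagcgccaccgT
Hist1h4d, chr13:23581602-23581661, plus strand: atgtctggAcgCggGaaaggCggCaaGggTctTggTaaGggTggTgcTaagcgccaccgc
Of all 50-base windows in the transcripts of a member, the median share that also occurs in another gene was 49.4% over the 68 members, from 1.12% in H1 to 73.0% in H2A, and 32 members shared over 50%. Assignment of reads between such copies is uncertain. Those windows span whole transcripts, whereas counts cover the authors' exons, whose length in 29 members equals the coding length. The share within the counted exons alone was not worked out. The pooled class depends less on how reads were split between copies, and single members are given beside it. Fragments left out because they match more than 1 gene are missing from the pooled class too. Exons overlap another gene in 10 members, which belong to H1, H2A, H2B and H4 and not to H3, so that loss may differ between classes. By sequence, H3 members still shared a median of 62% of their 50-base windows with other genes. How reads that fit several places were handled is not given, so H3 sums may be incomplete too.

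Library totals ran from 4766533 to 6686774 counts, of which the histone members held between 15886 and 34183. Values are given as counts per 1000000 (CPM) of the library total scaled by TMM, in the order untreated 1, 2 and 3 and then anti-PD-1 4, 5 and 6. All 5 Treg markers were above 100 CPM in every library, with sums of 5468 to 6481 CPM without and 4534 to 5178 CPM with anti-PD-1. The 2 CD8 T cell markers summed to 11.05 to 31.1 CPM and 18.8 to 51.1 CPM in the respective groups, and the 4 B cell markers to 3.04 to 10.0 CPM and 4.33 to 19.0 CPM. All 6 matched macrophage and monocyte markers stayed under 5 CPM, with C1qa at 0. Of the 8 genes on the tumor and fibroblast list, 4 stayed under 5 CPM, among them Krt8 at 0. Fn1 had 23.23 to 45.79 CPM, and Vim, which T cells also express, 995.6 to 1736 CPM, so that the list summed to 1360.3 to 1767 CPM without and 1035 to 1657 CPM with anti-PD-1. The part of other cells in the histone levels was not tested. In sorted bulk cells, fewer cells in S phase and less histone RNA per cell cannot be told apart.

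No histone gene passed the test between the groups after adjustment over all genes. The 68 members together took 2543, 4768 and 5765 CPM without and 3703, 3338 and 6546 CPM with anti-PD-1, or between 0.238% and 0.657% of a library's counts. The groups overlapped: untreated 1 was the lowest of the 6 libraries and anti-PD-1 6 the highest. Means were 4359 ± 1649 CPM without and 4529 ± 1756 CPM with anti-PD-1 (SD, n = 3 each), a log2 ratio of 0.06 against a within-group SD of 0.57 on the log2 scale. The sign of that ratio rested on single libraries: it was -0.22 without untreated 1 and -0.31 without anti-PD-1 6. The ratios of H1, H2A, H3 and H4 given below were above 0 with all libraries and below 0 without either of these, from -0.09 (H1) to -0.22 (H4) without untreated 1 and from -0.14 (H4) to -0.29 (H1) without anti-PD-1 6.

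Of the 68 members, 58 had enough counts to be tested, and edgeR's quasi-likelihood test with Benjamini-Hochberg adjustment over 10352 genes called 0 of them at 0.05, where 0.029% of all tested genes were called. The smallest adjusted p of a member was 0.552. DESeq2, which called 0.785% of the genes to which it gave an adjusted p, and limma-voom also called 0 members. Of the 58 tested members, 14 got no adjusted p from DESeq2 and so could not be called by it. At an unadjusted p under 0.05, where 8.3% of all tested genes lay, edgeR had 1 member of 58, on the lower side, or 1.72%, against 4.07% of all tested genes on that side, and 0 members on the higher side, against 4.23%. That count of 1 was unstable. It was 6 without untreated 3, 6 without anti-PD-1 6, 4 without untreated 1 and 4 without a low-count filter. It was 0 without untreated 2 or without anti-PD-1 4. The shares of all tested genes given here belong to the filtered fit of all 6 libraries. Shares under these alternatives are not given, so the counts cannot be set against them. Groups did not overlap for 13.6% of all tested genes. Among the members this held for 1 that was higher with anti-PD-1, against 7.18% of all tested genes, and for 0 that were lower, against 6.44%. The fold change was above 0 in 37 members and below 0 in 21, or 36.2%, where 49.9% of all genes were below 0. The median log2 fold change of the 58 was 0.06 beside 0.00 for all genes; these 58 are the members that passed the filter, not all 68. The members' median was -0.23 without untreated 1 and -0.32 without anti-PD-1 6. Standard errors of the members' log2 fold changes ran from 0.18 to 0.96, with a median of 0.38.

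**Figure D1:**
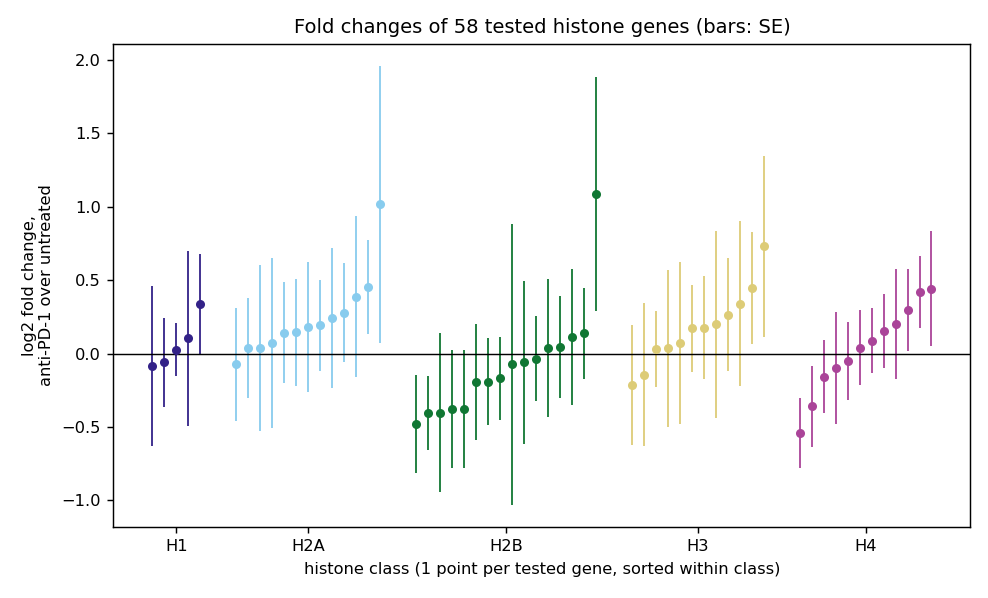
Log2 fold change of anti-PD-1 over untreated (vertical axis) for the 58 tested histone genes, 1 point per gene. Genes are sorted within each class along the horizontal axis. Bars are standard errors worked out from the edgeR fold change and its F statistic. Points lie on both sides of 0 in every class, with medians of 0.03 in H1, 0.18 in H2A, -0.12 in H2B, 0.17 in H3 and 0.06 in H4.

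Linker histone genes were led by Hist1h1c and Hist1h1e. The pooled H1 level was 561, 880.1 and 1075 CPM without and 753, 616 and 1381 CPM with anti-PD-1, a log2 ratio of the means of 0.13, and the groups overlapped. Hist1h1c had 203, 259.8 and 331 CPM without and 259.7, 214 and 528 CPM with anti-PD-1. Only anti-PD-1 6 stood above the untreated range for this gene, and its log2 fold change was 0.33 ± 0.34 (SE, adjusted p = 0.836). Hist1h1e had the smallest standard error of the 58 tested members, at 215, 305 and 318 CPM against 259.5, 229.7 and 363 CPM, with a log2 fold change of 0.03 ± 0.18 (adjusted p = 0.983). Its exons overlap those of Hist1h2be over 10.8% of their length, and reads there could be given to neither gene. Hist1h1d spread widely within both groups, from 59.2 to 218 CPM without and from 95.6 to 266 CPM with anti-PD-1. Hist1h1b and Hist1h1a had log2 fold changes of -0.08 ± 0.55 and -0.06 ± 0.31. Hist1h1t, known as the testis form, had 8 counts in anti-PD-1 5 and 0 elsewhere; a count of 0 allows up to 3 counts, or 0.621 CPM in the shallowest library.

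H2A genes lay above 0 in 12 of 13 tested members, and none passed the test. The pooled H2A level was 234, 583 and 711 CPM without and 461, 413 and 847 CPM with anti-PD-1, with a log2 ratio of 0.17. The lowest and highest libraries again were untreated 1 and anti-PD-1 6, and of the other 4 both untreated libraries were above both anti-PD-1 libraries. Hist1h2ab had 22.7, 80.6 and 98.5 CPM against 89.5, 50.5 and 122 CPM, a log2 fold change of 0.39 ± 0.55 (adjusted p = 0.891). Hist1h2ak had 32.5, 81.8 and 92.4 CPM against 60.3, 49.9 and 101 CPM, with 0.04 ± 0.34. Both genes thus differed more within the untreated group than between the groups. Hist3h2a, which can make polyadenylated messages, had 40.02, 74.0 and 116 CPM against 62.7, 87.3 and 113 CPM. Hist1h2ac had 17.3, 40.7 and 51.8 CPM against 39.4, 39.7 and 70.5 CPM, and its log2 fold change of 0.45 ± 0.32 had an adjusted p of 0.744. Hist1h2ao was the single member whose groups did not overlap, at 3, 9 and 6 counts in untreated and 10, 10 and 11 counts in anti-PD-1 libraries. Those few counts gave a log2 fold change of 1.02 ± 0.94 (adjusted p = 0.817). Of its exon bases, 76.5% overlap Hist1h2ap, which was at 0 counts in every library.

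H2B, with 19 members, held the most counts of the 5 classes and, with all 6 libraries, was the only one with a pooled ratio below 0. Its pooled level was 821, 1390 and 1768 CPM without and 962, 864 and 1769 CPM with anti-PD-1, a log2 ratio of -0.15, and the groups overlapped. The ratio was 0.12 without untreated 3, 0.04 without anti-PD-1 5, -0.01 without anti-PD-1 4, -0.40 without untreated 1 and -0.54 without anti-PD-1 6. Without untreated 1 or without anti-PD-1 6, the ratios of H1, H2A, H3 and H4 were below 0 as well. Of 16 tested H2B members, 11 were below 0 and 5 above, and none passed the test. Hist2h2bb, the gene with the most counts per length of the whole set, had 206, 383 and 440.3 CPM against 243, 256 and 417 CPM, a log2 fold change of -0.17 ± 0.28 (adjusted p = 0.910). Hist1h2bb had 157, 288 and 299.7 CPM against 195, 124 and 241 CPM, with -0.41 ± 0.25 (adjusted p = 0.709). For both genes untreated 2 and 3 were high and untreated 1 was as low as the lower anti-PD-1 libraries. Hist1h2bg had 123, 146 and 211 CPM against 133, 120.0 and 276 CPM, and so was highest in anti-PD-1 6. Hist1h2bk had the lowest fold change of the class, -0.48 ± 0.33 (adjusted p = 0.739), from 36.5, 54.1 and 71.7 CPM to 24.3, 26.3 and 66.3 CPM. Hist2h2be, whose message is known to be polyadenylated, was scarce at 0.480, 0.536 and 6.41 CPM against 7.96, 4.35 and 3.30 CPM. Untreated 3 fell among the anti-PD-1 libraries for this gene, and its log2 fold change of 1.08 ± 0.80 had an adjusted p of 0.752. Hist3h2bb-ps, marked as a pseudogene by its symbol, reached at most 3.20 CPM.

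H3 genes were mostly above 0, with a spread between libraries larger than the difference between groups. The pooled level was 375, 919.6 and 1038 CPM without and 703, 620.0 and 1399 CPM with anti-PD-1, a log2 ratio of 0.22 against a within-group SD of 0.72. Within the untreated group alone the highest library was 2.77 times the lowest. Of 12 tested members, 10 were above 0 and 2 below, and none passed the test. Hist1h3c had 55.1, 139.6 and 153 CPM against 112, 106 and 198 CPM, with a log2 fold change of 0.27 ± 0.38. Hist1h3f had 61.3, 92.0 and 157 CPM against 107, 107 and 211 CPM, with 0.45 ± 0.38, and Hist1h3b 41.9, 136 and 141 CPM against 89.3, 68.1 and 168 CPM, with 0.04 ± 0.54. In each of these genes untreated 1 was lowest and anti-PD-1 6 highest. Hist1h3a had the largest log2 fold change of the class, 0.73 ± 0.62 (adjusted p = 0.813), from 14.2, 64.5 and 73.2 CPM to 60.5, 55.1 and 135 CPM. Hist1h3h was also lowest in untreated 1 and highest in anti-PD-1 6, at 11.2 to 49.7 CPM without and 29.2 to 77.5 CPM with anti-PD-1.

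H4 held the member with the smallest p of all, Hist1h4f, on the minus strand of chromosome 13 from 23551332 to 23551643, where its 312 counted bases are coding sequence. Hist1h4f had 67.7, 131 and 125 CPM without and 73.4, 56.7 and 91.3 CPM with anti-PD-1. Untreated 1 lay inside the anti-PD-1 range, so the groups overlapped, and the log2 fold change of -0.54 ± 0.24 had an unadjusted p of 0.0312 and an adjusted p of 0.552 in edgeR. Over the alternatives run, its adjusted p lay between 0.103 and 0.946. The pooled H4 level was 552, 994.7 and 1172 CPM without and 824, 824 and 1150.1 CPM with anti-PD-1, a log2 ratio of 0.04. Of 12 tested members, 7 were above 0 and 5 below. Hist1h4c lay on the other side from Hist1h4f, at 37.5, 78.3 and 90.9 CPM against 78.9, 106 and 91.1 CPM, with a log2 fold change of 0.42 ± 0.25 (adjusted p = 0.686). Hist1h4d had 84.7, 192 and 192 CPM against 158, 164 and 252 CPM, with 0.30 ± 0.28 (adjusted p = 0.823). Hist1h4h had 67.2, 132 and 170.0 CPM against 100.3, 101 and 129 CPM, with -0.16 ± 0.25. Hist1h4n had 115, 156 and 241 CPM against 158, 162 and 224 CPM, with 0.09 ± 0.22 (adjusted p = 0.944). The Hist1h4n row counts exons at 2 places, 1 of which, 50% of its bases, coincides with Hist1h4m. Of the 50-base windows in Hist1h4n transcripts, 85.6% occur in other genes.

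**Figure D2:**
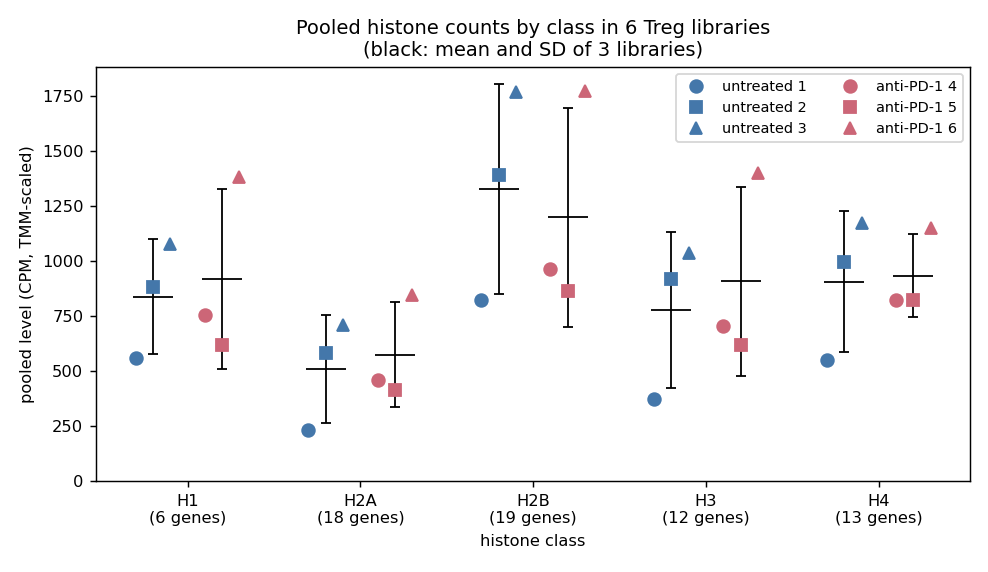
Pooled CPM of each histone class (vertical axis, from 0) in the 3 untreated (blue) and 3 anti-PD-1 (red) libraries; black bars are means with SDs over 3 libraries. In every class the groups overlap, with untreated 1 lowest and anti-PD-1 6 at or near the top.

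Per length, the members were far apart. The mean over 6 libraries in CPM per kilobase of counted exon ran from 1.47 to 658 over the 58 tested members, with a median of 111. Hist2h2bb was highest at 658, followed by Hist1h4d at 557, Hist1h2bb at 465 and Hist1h2bn at 298. Class medians on this scale were 136 for H1, 73.5 for H2A, 110 for H2B, 134 for H3 and 141 for H4, so H2A was the lowest class per length. Members whose annotation reaches far past the stem-loop, such as Hist1h2be with 2510 counted bases, are divided by a longer exon than members counted over coding sequence only. By CPM, the 10 highest members held 46.1% of the pooled mean, and 54 of the 68 had a mean of at least 10 CPM.

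The other 10 members had too few counts to be tested. Hist1h2ap, Hist2h2aa1, Hist1h2bq and Hist1h2br were at 0 in all 6 libraries, and Hist2h2aa2 and Hist1h4m each had 1 count, in anti-PD-1 6. All 6 share exon bases with another member: Hist1h2bq and Hist1h2br have the same 4242 bases, all of Hist2h2aa1 lies within Hist2h2aa2, and the counting gave no read to more than 1 gene. For these genes a 0 thus says nothing about the message. Hist1h2aa, a testis form of H2A, had 1 count in untreated 1 and 1 in untreated 3. Hist1h2ba, a testis form of H2B, had 1, 8 and 15 counts against 6, 2 and 8. Hist2h2ab had 30, 6 and 3 counts against 1, 1 and 21, so that 1 library of each group held most of its counts. Hist1h1t, given above, is the tenth.

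The make-up of the histone pool, unlike its size, separated the groups for H2B. This was noticed after the values were seen and has no test. H2B took 32.3%, 29.2% and 30.7% of the histone counts in untreated and 26.0%, 25.9% and 27.0% in anti-PD-1 libraries, or 30.7 ± 1.57% against 26.3 ± 0.628% (SD, n = 3 each). The 95% Wilson intervals, which cover counting error only, ran from 28.6% to 29.7% in untreated 2, the lowest of its group, and from 26.5% to 27.5% in anti-PD-1 6, the highest of its group. All 3 untreated libraries were above all 3 anti-PD-1 libraries, and these intervals did not meet. They take each fragment as independent and leave out the spread between libraries, so they cannot show that the groups differ. The H2A share was 9.20%, 12.2% and 12.3% against 12.4%, 12.4% and 12.9%. Its groups did not overlap either, with anti-PD-1 higher, but they touched within counting error. H1, H3 and H4 shares overlapped between the groups; H4 ranged from 17.6% to 24.7% within the anti-PD-1 group alone. Of the 5 shares and 10 ratios between classes looked at, the shares of H2B and H2A and 3 ratios did not overlap. Each of these ratios has H2B in it. H2B over H3 was 2.19, 1.51 and 1.70 in untreated and 1.37, 1.39 and 1.26 in anti-PD-1 libraries. H2A over H2B was 0.285, 0.419 and 0.402 against 0.479, 0.478 and 0.479, and H1 over H2B was 0.683, 0.633 and 0.608 against 0.783, 0.713 and 0.781. Shares add up to 100, and the ratios with H2B share its counts, so these are not separate observations. Fragments left out because they match more than 1 gene are missing from these shares and ratios, and that loss may differ between classes. The H2B share stayed lower in all 3 anti-PD-1 libraries when each tested H2B member was left out in turn. Without Hist2h2bb and Hist1h2bb together, the only pair left out, the share was 21.04%, 17.6% and 20.5% against 16.1%, 16.4% and 18.9%. The groups then overlapped, and the difference of means, anti-PD-1 minus untreated, was -2.58 percentage points against -4.41 with all members.

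**Figure D3:**
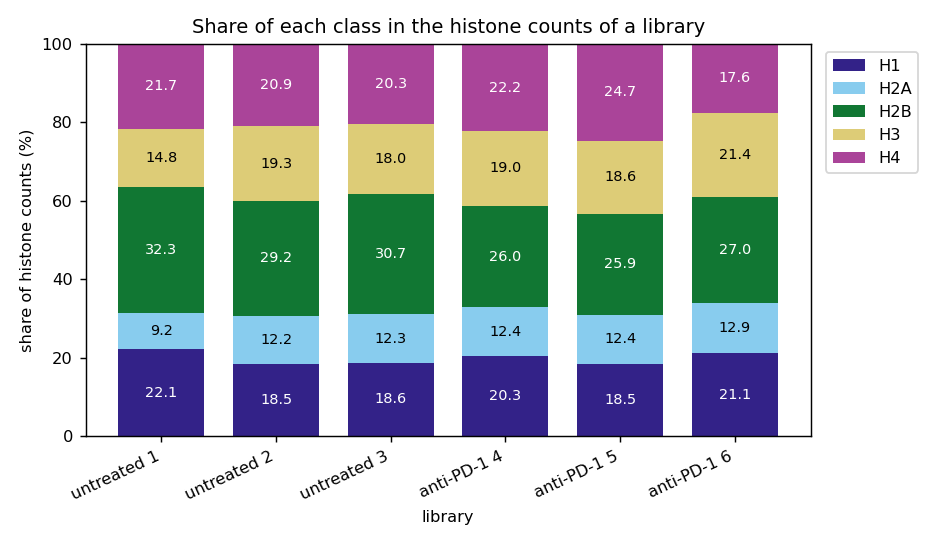
Share of each class in the histone counts of a library (percent, stacked to 100), for 3 untreated and 3 anti-PD-1 libraries. The H2B block is between 29.2% and 32.3% in untreated and between 25.9% and 27.0% in anti-PD-1 libraries.

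The start regions of Hist2h2bb and Hist1h2bb, the H2B genes of highest level, are shown beside that of Hist1h2bg, the third by level. RefSeq promoters (GRCm38.p6) matched 58 of the 68 members by symbol or synonym. The octamer ATTTGCAT, the binding site of Oct1 known from H2B promoters, was searched on both strands in the 250 bases before the start, as were the TATA box TATAAA and CCAAT. The octamer was found in 6 of 15 H2B and 7 of 16 H2A promoters and in no promoter of H1, H3 or H4, against 1.60% of all 32851 promoters of that length. H2A and H2B genes often stand back to back and then share these bases, so the matches are not independent. TATAAA was found in 48.3% of the members' promoters against 12.4% of all, and CCAAT in 82.8% against 33.8%, although in only 27.3% of those of H4. In the 150 bases before each start, capitals mark ATTTGCAT and TATAAA.
Hist2h2bb, chr3:96269550-96269699, plus strand: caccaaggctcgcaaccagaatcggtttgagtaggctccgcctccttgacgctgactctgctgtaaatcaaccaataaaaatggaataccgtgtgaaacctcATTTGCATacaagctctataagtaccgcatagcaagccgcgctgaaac
Hist1h2bb, chr13:23746584-23746733, plus strand: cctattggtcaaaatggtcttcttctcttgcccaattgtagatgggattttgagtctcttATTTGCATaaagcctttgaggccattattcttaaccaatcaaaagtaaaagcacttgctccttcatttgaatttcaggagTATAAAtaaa
Hist1h2bg, chr13:23571250-23571399, plus strand: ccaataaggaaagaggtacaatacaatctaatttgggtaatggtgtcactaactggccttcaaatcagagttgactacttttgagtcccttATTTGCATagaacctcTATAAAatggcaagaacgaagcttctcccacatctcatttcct
All 3 hold the octamer, while their log2 fold changes were -0.17, -0.41 and 0.14. A match of letters is a description of the sequence and not a measured site.

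The order of the libraries was shared across the members more than the order of the groups. Untreated 1 was the lowest library for 42 of the 58 tested members, or 72.4%, against 27.2% of all tested genes, and anti-PD-1 6 was the highest for 38, or 65.5%, against 13.9% of all genes. All 58 members were higher in untreated 3 than in untreated 1, by a median ratio of 2.55, and 56 were higher in anti-PD-1 6 than in anti-PD-1 4. For all 58 the range over the untreated libraries exceeded the difference of the group means, against 83.7% of all genes. The range over the anti-PD-1 libraries did so for 57 members, against 80.1% of all genes. The mean log2 level of the 58 members, relative to its mean over the 6 libraries, was -0.87, 0.20 and 0.50 in untreated and -0.14, -0.35 and 0.66 in anti-PD-1 libraries.

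**Figure D4:**
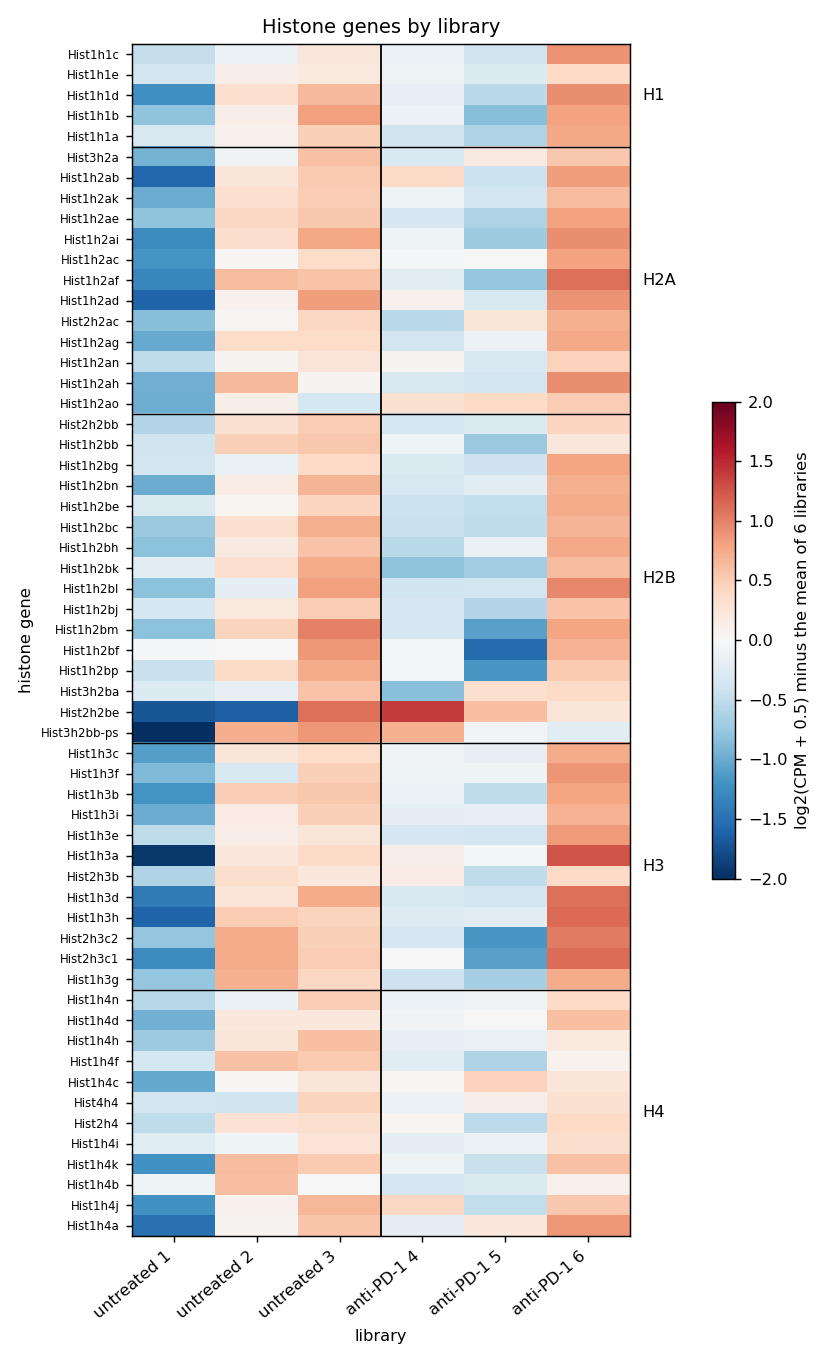
Log2(CPM + 0.5) of the 58 tested histone genes (rows, by class) in 6 libraries (columns), relative to the mean of each gene; red is above and blue below that mean. The untreated 1 column is blue for most genes and the anti-PD-1 6 column red, across all 5 classes.

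Other genes moved with this order. The 73 tested cytosolic ribosomal protein genes, which also have short and abundant messages, had relative levels of -0.32, -0.09 and 0.20 in untreated and -0.10, -0.18 and 0.49 in anti-PD-1 libraries. The 781 other tested genes with a counted length under 1 kb had -0.24, 0.05 and 0.00 against -0.10, 0.03 and 0.25. Malat1, a long nuclear RNA and a single gene outside the lists, ran the other way. It had 33149, 18818 and 18981 CPM in untreated and 22214, 24961 and 14840 CPM in anti-PD-1 libraries. The part of RNA quality or library make-up in the histone levels was not tested. The 29 tested genes of DNA replication had -0.16, 0.21 and 0.34 against -0.21, -0.47 and 0.30, so untreated 2 and 3 and anti-PD-1 6 were also their higher libraries. Untreated 1 was closer to the average for these genes than for the histone genes. The 9 replacement histone genes had -0.21, -0.14 and 0.16 against -0.02, -0.03 and 0.24.

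**Figure D5:**
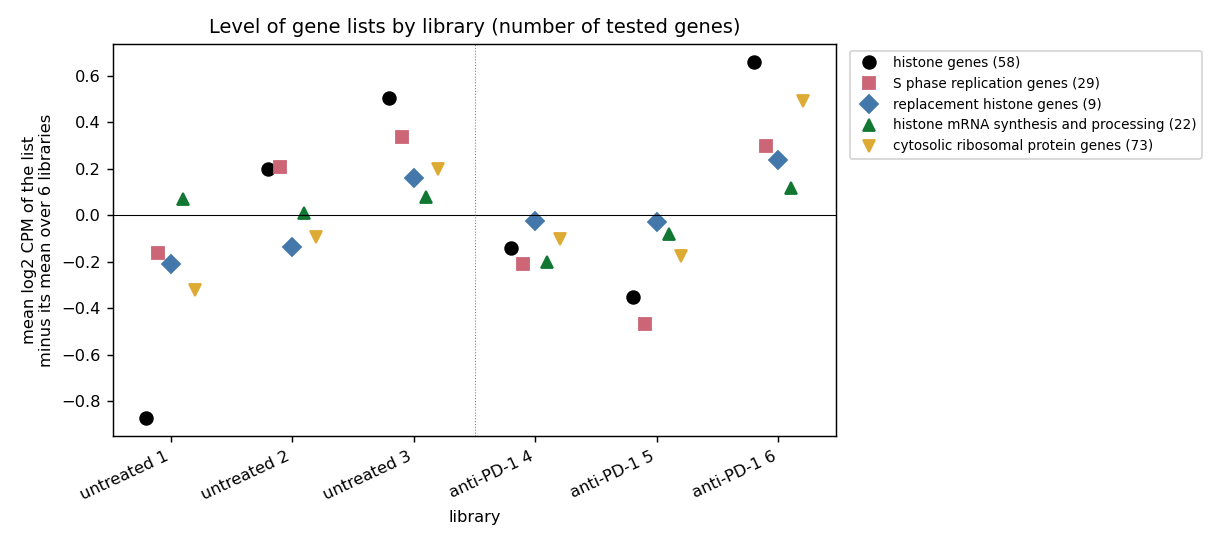
Mean log2 CPM of each gene list minus its mean over the 6 libraries (vertical axis) by library; the numbers of tested genes stand in the legend. Histone genes spread from -0.87 to 0.66, whereas replacement histone genes stay between -0.21 and 0.24.

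Genes that make and process histone messages had no called member either. Of 23 listed, 22 were tested, with 7 above and 15 below 0 and a median log2 fold change of -0.17. At an unadjusted p under 0.05 edgeR had 0 higher and 3 lower genes, against 4.23% and 4.07% of all tested genes. DESeq2 called 0 but gave no adjusted p to 9 of the 22. Groups did not overlap for 1 higher and 4 lower genes, against 7.18% and 6.44% of all tested genes. Slbp had 111, 105 and 110.1 CPM without and 80.8, 66.4 and 112 CPM with anti-PD-1. Anti-PD-1 6 reached the untreated level, and the log2 fold change was -0.33 ± 0.20 (adjusted p = 0.692). Npat, the cyclin E/CDK2 target that activates histone transcription, had 112, 88.1 and 102 CPM against 85.3, 76.8 and 78.7 CPM without overlap, at -0.33 ± 0.19 (adjusted p = 0.684). Ccne2, a cyclin E gene, had 40.02, 29.5 and 32.9 CPM against 22.2, 21.1 and 22.3 CPM, at -0.65 ± 0.29 (adjusted p = 0.569). Ccne1, the other cyclin E gene, was scarce at 0.160, 12.9 and 2.87 CPM against 1.52, 5.59 and 8.24 CPM and overlapped between groups. Cstf2, a subunit of the cleavage machinery, had 117, 98.6 and 86.5 CPM against 81.3, 49.5 and 78.7 CPM, at -0.53 ± 0.21 (adjusted p = 0.538). Eri1, the exonuclease that trims and degrades the stem-loop end, had 179.9, 209 and 162 CPM against 148, 141 and 141 CPM, at -0.36 ± 0.17 (adjusted p = 0.579). Cpsf3, the endonuclease that cuts after the stem-loop, lay on the higher side at 39.1, 44.9 and 55.8 CPM against 61.6, 65.8 and 64.1 CPM, at 0.46 ± 0.22 (adjusted p = 0.605). Groups of Ccne2, Cstf2, Eri1 and Cpsf3 did not overlap, but none passed after adjustment.

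Of the 20 histone chaperone and deposition genes, all tested, 5 were above and 15 below 0, with a median of -0.22. Neither edgeR nor DESeq2 called any, but 7 of the 20 got no adjusted p from DESeq2. At an unadjusted p under 0.05 there was 1 gene, Ipo4, on the higher side, against 4.23% of all tested genes. Groups did not overlap for 2 higher genes and 1 lower gene, against 7.18% and 6.44%. Ipo4, an import receptor for H3 and H4, had 4.00, 8.40 and 5.40 CPM against 12.1, 14.1 and 13.2 CPM, a log2 fold change of 1.16 ± 0.48 (adjusted p = 0.551). Asf1a, which hands H3 and H4 to assembly factors, had 14.1, 23.9 and 25.6 CPM against 31.7, 44.1 and 22.3 CPM, and its groups overlapped. Cabin1 of the HIRA complex had 0.35 ± 0.20 and Atrx, which deposits a replacement H3 with Daxx, -0.23 ± 0.14, both without overlap between groups. Of the 9 tested replacement histone genes, 5 were above and 4 below 0, with 0 called by edgeR or DESeq2. None was at an unadjusted p under 0.05 in edgeR, and 2 of the 9 got no adjusted p from DESeq2. H3f3b had 621, 476 and 466 CPM against 464, 505 and 496 CPM, at -0.09 ± 0.15. H2afv, H1f0 and H2afy had log2 fold changes of 0.75 ± 0.39, 0.31 ± 0.29 and 0.18 ± 0.21.

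Genes of DNA replication were below 0 in 24 of 29 tested members, with a median of -0.27, and 0 were called by edgeR or DESeq2. However, 18 of the 29 got no adjusted p from DESeq2 and so could not be called by it. At an unadjusted p under 0.05 there were 3 lower and 0 higher members, against 4.07% and 4.23% of all genes. Rrm1, a subunit of ribonucleotide reductase, had 172, 149 and 170.2 CPM against 118, 76.8 and 129.8 CPM, at -0.59 ± 0.19 (adjusted p = 0.448). Rrm2, the other subunit, had 54.0, 42.4 and 58.02 CPM against 27.3, 22.4 and 45.5 CPM, at -0.70 ± 0.27 (adjusted p = 0.521). Pola1, the catalytic subunit of the polymerase that starts DNA synthesis, had 90.6, 87.6 and 93.3 CPM against 47.2, 64.8 and 70.9 CPM, at -0.58 ± 0.21 (adjusted p = 0.481). Fen1, which trims Okazaki fragments, had -0.66 ± 0.35 (adjusted p = 0.640). With all 6 libraries, the median of the replication genes thus lay below 0 and that of the tested histone genes at 0.06. The histone median was -0.23 without untreated 1 and -0.32 without anti-PD-1 6, and such values are not given for the replication genes. The difference between the lists was not tested.

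Among the 68 members, 6 are known to make polyadenylated messages outside S phase: Hist1h1c, Hist1h2bc, Hist2h2be, Hist3h2a, Hist3h2ba and Hist4h4. All were tested, and edgeR and DESeq2 called 0, with 0 at an unadjusted p under 0.05 in edgeR. No adjusted p was given by DESeq2 to 2 of the 6. Log2 fold changes were above 0 in 4 and below 0 in 2, with a median of 0.17. Their relative level was -0.77, -0.36 and 0.62 in untreated and -0.06, 0.06 and 0.52 in anti-PD-1 libraries. As for the whole set, untreated 1 was lowest, while untreated 3 was highest.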

How the data were processed

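RNA of sorted Tregs was sequenced in 6 libraries made with the NuGEN Ovation SoLo kit, per the labels' protocols. The authors deposited raw fragment counts. Per the file headers, featureCounts 1.5.2 counted by strand against UCSC mm10 genes and left out fragments that match more than 1 gene. The sources used here do not give aligner settings or duplicate handling. Genes passed filterByExpr (a count of 10, a total of 15), which kept 10352 genes with 99.8% of the counts. Libraries were scaled by TMM and tested with edgeR 4.0.16 in R 4.3.3 (quasi-likelihood with robust shrinkage, two-sided, adjusted by Benjamini-Hochberg over all tested genes at 0.05), after a check on simulated data. Standard errors of log2 fold changes were worked out as the absolute log2 fold change divided by the square root of the test's F statistic. Pooled classes and shares are descriptions without a test. DESeq2 1.42.0, limma-voom 3.58.1, other scalings and filters and each library left out were alternatives. Named with values are, per class, the 3 members of highest mean CPM and 2 more of smallest p; of other lists, Slbp, Npat and the 4 genes of smallest p. Members outside that rule (untested ones, Hist3h2bb-ps and those of the level order) were named for a count or level. Ccne1, also outside it, was named beside Ccne2 as the other cyclin E gene. Malat1, in no list, was named for its order over the libraries. Members and lists were chosen with earlier results of these data known. 1 unnamed column with 6 values was not used.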

Additional observations from a re-analysis of the deposited data

How the results depend on the processing

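The count of called histone genes was 0 under each of the 14 alternatives run. Over all genes, the count of 3 became 34 with DESeq2, 7 with library totals in place of TMM, 52 without a low-count filter, 5 without robust shrinkage and 5 with limma-voom, and 1 to 19 with each library left out (1 without anti-PD-1 5, 19 without untreated 1). The cause was not tested. Of the values for named histone genes under these alternatives, 319 kept their sign and 29 did not, none of them called. No paired analysis was possible because the groups share no replicate number. With 3 libraries a group and within-group SDs of 0.45 to 0.72 (log2) for pooled classes, small differences in either direction could not have been seen.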
